A study of Arabidopsis thaliana with 27 samples.

Results

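The genes described here are those of Arabidopsis root tips whose transcripts were raised late and by the ΔMP line alone. They were chosen by measured values. For each gene, TPM (a relative transcript level corrected for transcript length and library total) was averaged over the 3 libraries of a group, 0.5 was added, and each estradiol group was divided by the mock of its line. A gene was a member if this ratio was at least 2 in ΔMP after 180 min of estradiol, from 0.75 to 1.33 in ΔMP after 90 min, and from 0.67 to 1.5 after 180 min in both AXR3-1 and Col-0, with at least 2 TPM in ΔMP after 180 min. Of 27313 genes, 100 met the rule. The ratios that chose them are a description and were not tested.

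Each library held RNA of many root tips, cut from seedlings grown for 5 d, of Col-0 (wild type, no transgene), of pG1090::XVE ≫ AXR3-1 or of pG1090::XVE ≫ ΔMP. The G1090 promoter drives the activator XVE broadly, and estradiol lets XVE turn on the transgene. The AXR3-1 transgene encodes IAA17/AXR3, an Aux/IAA repressor, in a version that resists degradation, and the ΔMP transgene encodes the activator ARF5/MP without the part that Aux/IAA proteins bind. Each line was kept for 90 min with DMSO (mock) or for 90 or 180 min with 2.5 µM estradiol, with 3 libraries, A, B and C, in each of 9 groups. No mock of 180 min was analysed here, so 180 min of estradiol against the mock also holds a difference in time. Col-0 received the same estradiol, and its libraries show what time and estradiol do without a transgene. Nothing in the labels says that the letters stand for separate cultures, so p-values measure the spread between these libraries, which may be technical. The study's methods say that every experiment had 3 or more biological replicates, but not how the libraries relate to them.

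As background, auxin acts on transcription by removing Aux/IAA repressors from ARF transcription factors, which bind auxin response elements with the core TGTC. Aux/IAA genes are themselves targets of ARFs, and GH3 genes, which encode enzymes that join auxin to amino acids, are another early group of targets. SAUR proteins and the XTH enzymes that cut and rejoin xyloglucan are known from cell expansion.

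The induced transcripts followed the labels. ARF5/MP went from 9.20 ± 0.228 TPM (SD, n = 3) in the ΔMP mock to 928 ± 41.7 at 90 min and 1390 ± 45.5 at 180 min, and IAA17/AXR3 from 142 ± 11.2 in the AXR3-1 mock to 1190 ± 33.9 and 2540 ± 86.7. These reads come from transgene and native gene alike. The libraries held 13634037 to 34272503 assigned read pairs. Markers of other cell types moved with the late ΔMP group. The summed TPM of 8 root hair markers was 307 to 349 in the ΔMP mock, 225 to 276 at 90 min and 530 to 551 at 180 min. In Col-0 this sum was 296 to 338 in the mock and 335 to 433 at 180 min, and in AXR3-1 284 to 346 and 107 to 135. The sum of 4 root cap markers in ΔMP was 56.8 to 58.5 in the mock and 79.0 to 82.7 at 180 min. That of 12 photosynthetic genes was 141 to 152 in the mock, 171 to 176 at 90 min and 121 to 125 at 180 min, with 4 of the 12 under 1 TPM in every group. Root meristem markers, all 10 summed, were at 141 to 164 and 144 to 162, and 15 endodermis and suberin genes at 1640 to 1750 and 1460 to 1530. The part of cell composition in the results below was not tested, and in such pooled tissue fewer cells of a type and less RNA per cell cannot be told apart.

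The rule kept a minority of the genes that were higher in ΔMP. After 180 min, 307 genes stood at least 2 times above the mock with at least 2 TPM, the ARF5/MP transgene among them. Of the 207 that were not members, 42 missed the rule only through a ratio above 1.33 at 90 min, and 56 only through a ratio below 0.67 in AXR3-1. The rest missed it by another limit or by several. In the counts of lists and families, a gene said to reach a ratio of 2 in ΔMP at 180 min also had at least 2 TPM there.

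**Figure D1:**
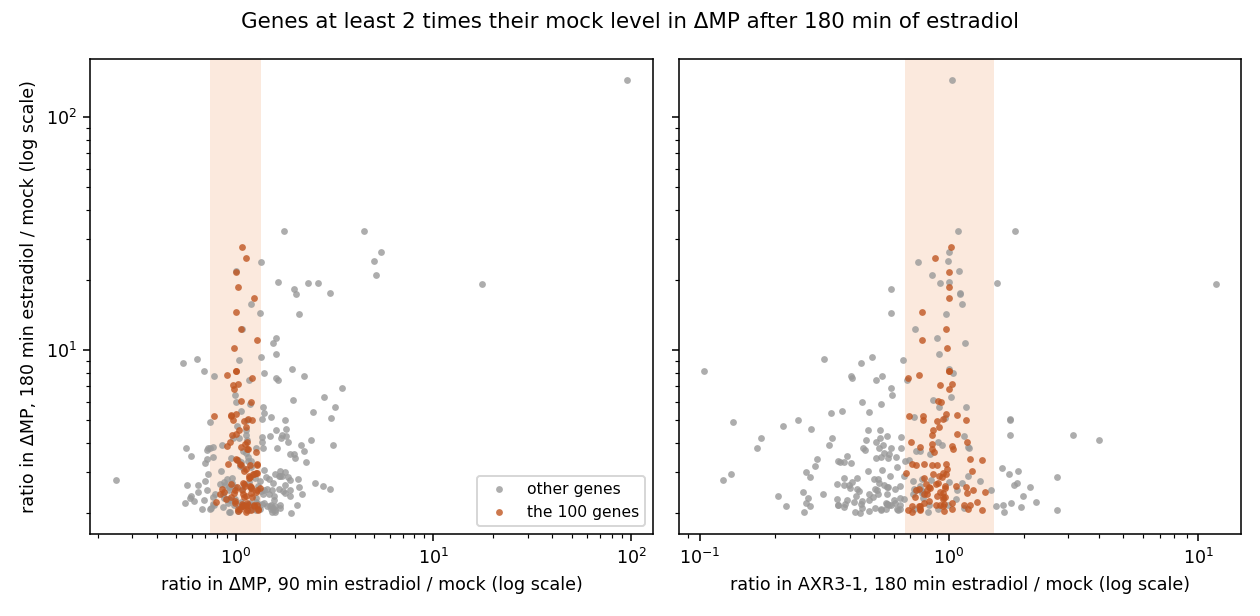
Each point is 1 of the 307 genes with a ratio of at least 2 and at least 2 TPM in ΔMP after 180 min, with both axes as ratios to the mock of the line on log scales; the shaded bands are the ranges of the rule, 0.75 to 1.33 on the left and 0.67 to 1.5 on the right. The 100 genes in orange lie inside both bands by construction, most of them at ratios below 4, while grey points spread to higher ratios at 90 min and to lower ratios in AXR3-1.

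The median ratio of the members in ΔMP at 180 min was 2.95 and the highest 27.6. Of the 100, 33 had a ratio under 2.5, 32 a ratio of at least 4, and 9 a ratio of at least 10. In the ΔMP mock, 38 members were under 1 TPM, 43 between 1 and 10 TPM, and 19 at 10 TPM or more. The 3 libraries at 180 min were close to each other, with the highest less than 1.5 times the lowest for 84 members. For 98 members, all 3 libraries at 180 min were above every one of the other 24 libraries of the series, against 4.7% of all genes. In the edgeR fit over all genes, 96 members passed the filter on low counts and all 96 were called higher at 180 min (adjusted p at most 0.05 and at least 2-fold), where 2.34% of the 19530 genes tested were. The rule used these libraries, so neither count is a result about the genes.

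The limits of the rule did not part the genes sharply. Just inside the minimum ratio lay AT1G62840 at 2.01 and AT1G01320 at 2.03, and just outside AT3G62780 at 1.997 and AT5G61570 at 1.991. At the upper end of the range at 90 min lay AT5G13090 at 1.326 inside and AT2G27770 at 1.331 outside, and at the lower end in AXR3-1 XTH19 at 0.675 inside and AT5G41071 at 0.665 outside. At the minimum level lay AT2G04570 with 2.1 TPM inside and SAUR24 with 1.97 TPM outside. The word late also has a limit. At 90 min the median ratio of the members in ΔMP was 1.09, 20 members were at 1.2 or more, and for 24 all 3 libraries at 90 min were above every mock library, against 8.99% of all genes, and for 2 all were below, against 7.17%. In AXR3-1 after 180 min the median ratio was 0.92, with all 3 libraries below every mock library for 27 members (14.0% of all genes) and above for 6 (11.2%). In Col-0 after 180 min the median ratio was 1.01. The rule used the libraries behind all these counts, so they describe the set and are not a result about the genes.

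The steepest members were nearly silent before. RAS1 (AT1G09950, RESPONSE TO ABA AND SALT 1, chromosome 1, 3240531 to 3241863 of TAIR10.1) was at 0.170, 0.585 and 0.246 TPM in the ΔMP mock, at 0.216, 0.329 and 0.634 TPM at 90 min and at 20.3, 21.0 and 26.3 TPM at 180 min. No other library of the series exceeded 0.634 TPM for it, and its ratio was 27.6. FAF2 (AT1G03170, chromosome 1, 768376 to 770684), of a small plant family that affects shoot meristem size, stood at 0.081 to 0.163 TPM in the mock, at 0.117 to 0.250 TPM at 90 min and at 11.9, 15.2 and 17.3 TPM at 180 min, with a ratio of 25.0. It was the only member among 13 genes listed as shoot and flower targets of ARF5/MP. No other gene of that list reached a ratio of 2.

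Some members had no read at all in the mock. SAUR75 (AT5G27780, chromosome 5, 9838812 to 9839454) was at 0 TPM in all 24 other libraries and at 5.80, 10.7 and 14.4 TPM in ΔMP at 180 min. Taking 3 counts over the mock group as the lowest detectable level, this was at least 66.0-fold higher, though 46.9% of the 31-base words of its coding sequence also occur in other SAUR genes, so reads can be split among them. AT5G45950 (chromosome 5, 18634041 to 18636720), a GDSL-type lipase or esterase by annotation, went from 0 counts in the mock to 7.47, 9.14 and 9.97 TPM, at least 175-fold. AT5G43175 (chromosome 5, 17334121 to 17335234), a bHLH protein, was at 0 counts in the mock, at 0.061, 0.226 and 0.078 TPM at 90 min and at 4.83, 9.99 and 8.81 TPM at 180 min, at least 96.3-fold above the mock. In all, 6 members had no mock count. The 3 others were AT5G38580, AT5G57760 and AT1G51810. The ratios of such genes depend on the 0.5 TPM added.

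**Figure D2:**
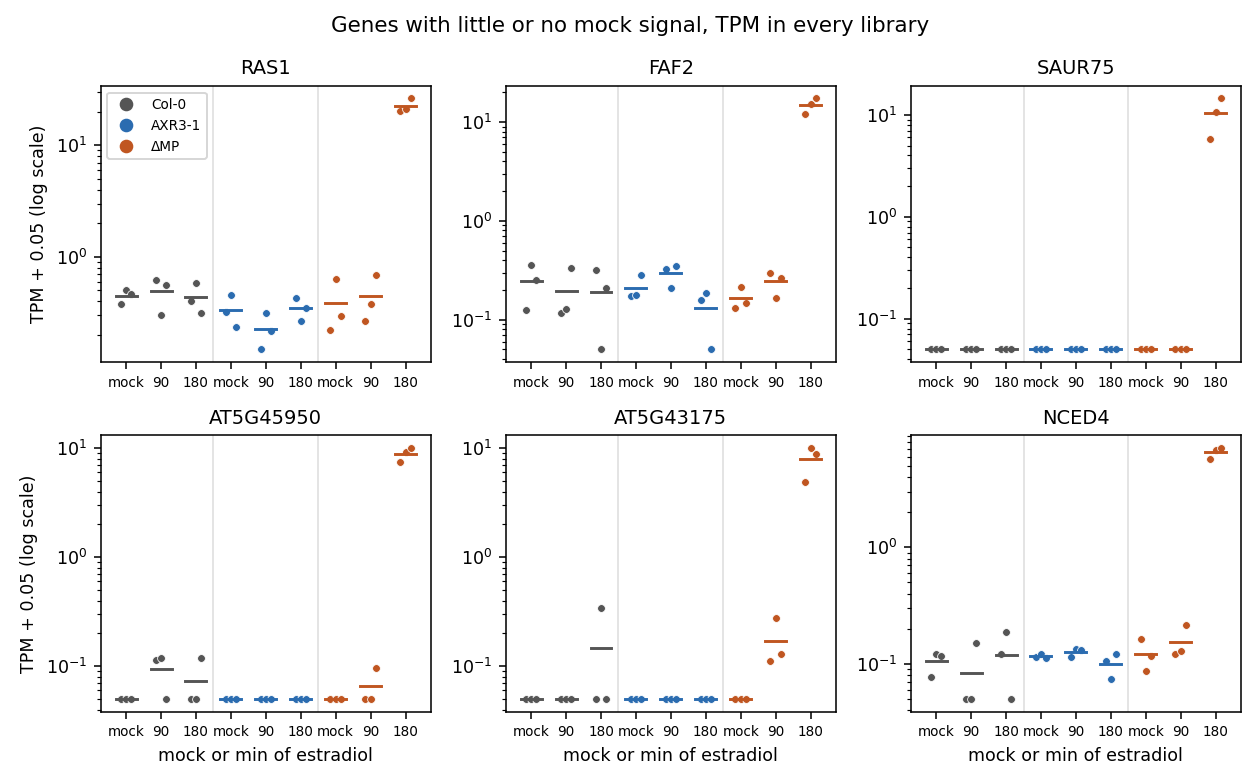
TPM + 0.05 on a log scale (y) of 6 genes in each of the 27 libraries, grouped as mock, 90 and 180 min of estradiol in Col-0 (grey), AXR3-1 (blue) and ΔMP (orange), with a bar at the mean of each 3 libraries. Only the last group stands out in each panel, as for RAS1 with 20.3 to 26.3 TPM against at most 0.634 TPM elsewhere.

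Further members of large ratio had various roles. NCED4 (AT4G19170), which cleaves carotenoids, was at 0.037 to 0.112 TPM in the mock and at 5.70, 6.76 and 7.08 TPM at 180 min, a ratio of 12.3. CCD8, an enzyme of strigolactone synthesis, had a ratio of 3.64 and reached 2.60 ± 0.347 TPM (SD, n = 3). GA20OX5, a gibberellin 20-oxidase, had 1 count over the 3 mock libraries and stood at 2.55 to 3.29 TPM at 180 min. It was not in the fixed list of gibberellin genes, which held no member. CYP706A2, a cytochrome P450, went from 0.127 to 0.441 TPM to 7.71 to 8.34 TPM, but shares 77.0% of its 31-base words with its paralog CYP706A1, so its level is uncertain. CYCP4;3, a P-type cyclin, went from 1.13 to 3.25 TPM in the mock to 17.3, 21.6 and 20.9 TPM. MAKR6, of the membrane-associated kinase regulators, went from 0.956 to 1.62 TPM to 12.5, 13.6 and 12.7 TPM. KCO2, a potassium channel, and RLP37, a receptor-like protein, were lower, at 3.39 ± 0.263 and 2.27 ± 0.349 TPM (SD, n = 3) at 180 min with ratios of 7.14 and 5.05.

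The auxin pathway was present among the members through its repressors and its conjugating enzymes. Of 28 Aux/IAA genes, 7 reached a ratio of 2 in ΔMP at 180 min and 4 of these were members, IAA2, IAA4, IAA5 and IAA19. The other 3 were below 0.67 in AXR3-1, and 1 of them was also above 1.33 at 90 min in ΔMP. Of 8 conjugation genes, 4 reached a ratio of 2. GH3.5 and GH3.6 were members, and the other 2 were below 0.67 in AXR3-1. No gene of the lists for lateral root founding, vascular founding by ARF5/MP, xylem, cambium, flavonoids, endodermis, cytokinin, ethylene, gibberellin, cell division, jasmonate, photosynthesis, root cap or root hair was a member. Members were only 100 of 27313 genes, so the lack of one in a short list is not a result about that list. Of these lists, gibberellin had 3 genes at a ratio of 2, and ethylene, jasmonate, root cap and root hair had 1 each.

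IAA5 (AT1G15580, chromosome 1, 5365512 to 5366497) was at 0.149, 0.099 and 0.188 TPM in the ΔMP mock, at 0.157, 0 and 0.293 TPM at 90 min and at 10.2, 7.06 and 9.34 TPM at 180 min. It did not exceed 0.548 TPM in any other library. IAA19 (AT3G15540, chromosome 3, 5264001 to 5265695) was at 12.1, 11.8 and 11.5 TPM in the mock, at 11.1, 11.2 and 11.2 TPM at 90 min and at 34.8, 30.9 and 31.3 TPM at 180 min. IAA5 was flat at 90 min, while the IAA19 libraries at 90 min lay slightly below all mock libraries. IAA2 (AT3G23030, chromosome 3, 8180646 to 8182095) was at 51.9, 47.0 and 49.4 TPM in the mock, at 62.6, 60.5 and 55.9 TPM at 90 min and at 110, 104 and 136 TPM at 180 min, and its libraries at 90 min did not overlap the mock. IAA4 (AT5G43700, chromosome 5, 17550179 to 17551715) went from 45.7 to 55.5 TPM over 57.7 to 63.9 TPM to 101 to 110 TPM.

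GH3.5 (AT4G27260, chromosome 4, 13653579 to 13656285) was at 14.8, 14.0 and 13.9 TPM in the ΔMP mock, at 14.2, 14.8 and 15.7 TPM at 90 min and at 48.7, 45.4 and 47.5 TPM at 180 min. GH3.6 (AT5G54510, chromosome 5, 22130964 to 22133688) was at 8.06, 8.78 and 8.65 TPM in the mock, at 10.3, 10.8 and 10.7 TPM at 90 min and at 24.9, 23.8 and 28.9 TPM at 180 min. GH3.5 was thus flat at 90 min, while the libraries of GH3.6 at 90 min lay above all mock libraries.

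**Figure D3:**
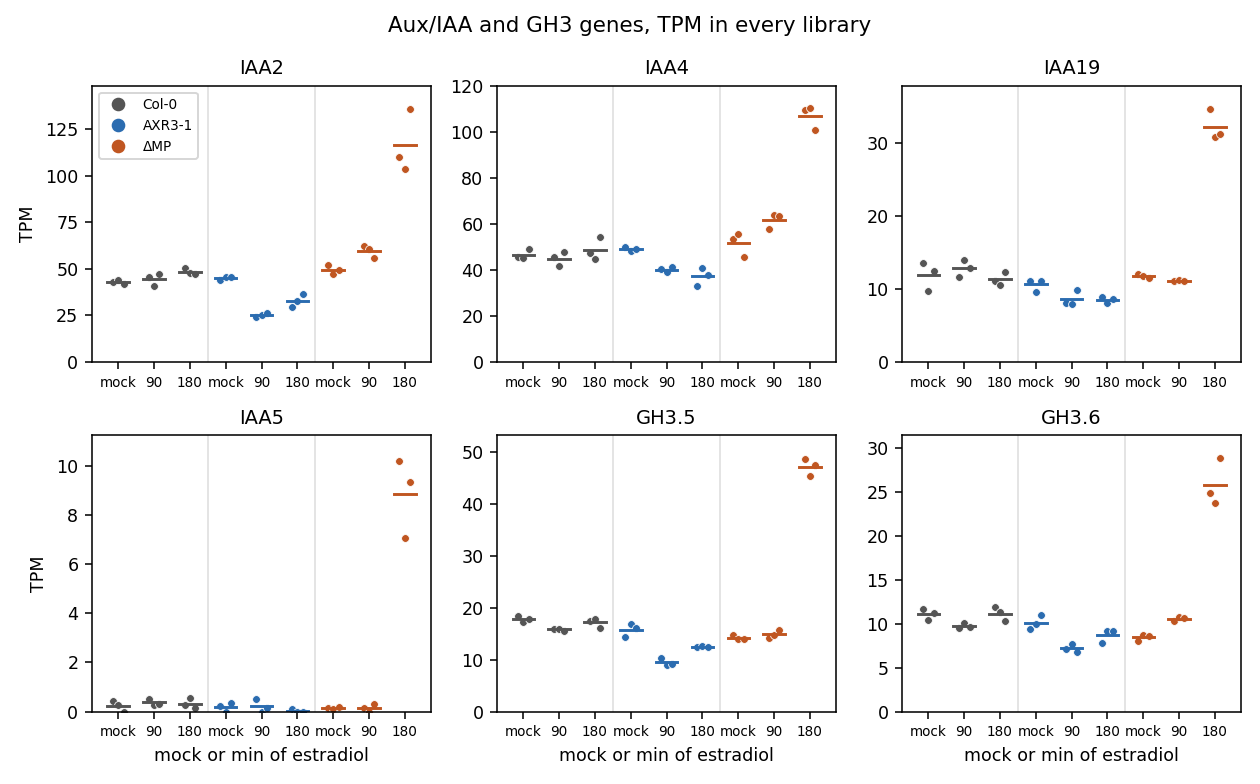
TPM (y) of the 4 Aux/IAA and 2 GH3 genes in each of the 27 libraries, grouped as mock, 90 and 180 min of estradiol in Col-0 (grey), AXR3-1 (blue) and ΔMP (orange), with a bar at the mean of each 3 libraries. The ΔMP libraries at 180 min are highest in each panel, and IAA2 and GH3.5 are lowest in AXR3-1 at 90 min, at 24.0 to 26.3 and 9.04 to 10.3 TPM.

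The promoters shown here are those the sequence results turn on. They are the 250 bases before the RefSeq start of the gene in TAIR10.1, 5′ to 3′ on the gene's strand. Shown are the 4 members of largest ratio with TGTCTC or TGTCGG in their window, and GH3.5 and IAA19, which were added after their values were seen. GH3.5 and IAA19 were among the members lower in AXR3-1 than in Col-0 at 90 min. IAA2 and GH3.6 were also lower there, but their windows held neither motif and are not shown. The other members lower there are not shown either. Of these, TBL21 held TGTCTC 144 bases before its start, ARO3 held TGTCGG on the other strand after its start, and XTH19 and AT5G05840 held neither. Capitals mark TGTCTC or TGTCGG, or their reverse complements GAGACA and CCGACA.
RAS1: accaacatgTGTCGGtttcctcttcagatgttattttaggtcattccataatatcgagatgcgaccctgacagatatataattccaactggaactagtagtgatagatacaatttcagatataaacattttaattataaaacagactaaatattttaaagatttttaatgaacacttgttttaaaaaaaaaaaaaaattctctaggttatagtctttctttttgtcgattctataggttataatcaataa
AT5G45950: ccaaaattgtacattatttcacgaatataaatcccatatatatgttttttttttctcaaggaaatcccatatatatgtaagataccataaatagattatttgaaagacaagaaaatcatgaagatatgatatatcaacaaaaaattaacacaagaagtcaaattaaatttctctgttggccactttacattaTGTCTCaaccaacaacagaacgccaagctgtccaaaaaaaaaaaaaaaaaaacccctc
IAA5: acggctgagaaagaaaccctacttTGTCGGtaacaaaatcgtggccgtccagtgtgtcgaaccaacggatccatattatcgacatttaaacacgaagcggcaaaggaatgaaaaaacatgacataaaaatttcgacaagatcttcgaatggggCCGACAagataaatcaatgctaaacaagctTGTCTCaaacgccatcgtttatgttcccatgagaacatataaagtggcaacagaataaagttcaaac
AT5G57760: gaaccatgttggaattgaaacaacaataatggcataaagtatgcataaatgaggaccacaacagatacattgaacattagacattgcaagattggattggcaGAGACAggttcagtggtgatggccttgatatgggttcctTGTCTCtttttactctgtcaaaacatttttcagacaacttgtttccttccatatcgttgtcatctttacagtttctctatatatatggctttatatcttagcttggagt
GH3.5: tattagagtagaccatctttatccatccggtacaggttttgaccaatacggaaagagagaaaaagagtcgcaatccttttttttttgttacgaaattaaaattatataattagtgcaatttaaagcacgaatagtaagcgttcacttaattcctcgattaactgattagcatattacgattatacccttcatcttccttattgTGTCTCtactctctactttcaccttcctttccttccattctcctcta
IAA19: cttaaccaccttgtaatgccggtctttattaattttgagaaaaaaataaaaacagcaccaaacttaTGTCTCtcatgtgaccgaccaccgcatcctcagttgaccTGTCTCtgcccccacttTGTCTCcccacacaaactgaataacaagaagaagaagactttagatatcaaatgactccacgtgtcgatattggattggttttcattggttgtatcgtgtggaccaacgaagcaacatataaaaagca

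IAA5 had a TGTCGG on each strand, with first bases 226 and 97 bases before the start, and a TGTCTC 67 bases before it. IAA19 had 3 TGTCTC, at 184, 145 and 128 bases before the start, all on the gene's strand. GH3.5 had 1, at 47 bases, and IAA2 had none in this window. Over windows of 250 bases before to 50 bases after the start, searched on both strands, TGTCTC or TGTCGG was found in 29 of 100 members (29.0%, 95% Wilson interval 21.0 to 38.5), in 38.1% of the 202 other raised genes with a RefSeq start and in 18.6% of 26645 genes. TGTCTC alone was in 22.0% of members and 14.1% of all genes, and TGTCGG in 10.0% and 5.13%. These shares are a description without a test, a match is not a bound site, and of the 3 members with the largest ratio only RAS1 held a match. The core TGTC alone was in 93.0% of member windows and 81.5% of all.

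A pair of members is divergent and adjacent, AT5G57910, annotated as a ribosomal RNA methyltransferase, on the minus strand and ENODL10 on the plus strand of chromosome 5. The 92 bases between their starts, chr5:23452964-23453055 of TAIR10.1, plus strand, are shown because both genes share them, and they hold neither motif.
AT5G57910 and ENODL10: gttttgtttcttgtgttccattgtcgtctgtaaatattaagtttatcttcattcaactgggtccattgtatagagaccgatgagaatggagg
AT5G57910 was at 28.3, 29.9 and 26.8 TPM in the ΔMP mock and at 62.7, 58.6 and 64.1 TPM at 180 min, and ENODL10 at 5.41, 4.72 and 6.25 TPM and at 12.7, 14.5 and 14.3 TPM. Their ratios were 2.16 and 2.41. No other pair of members were direct neighbours, and the 100 genes lay on all 5 chromosomes, 29 on chromosome 1, 9 on chromosome 2, 14 on chromosome 3, 19 on chromosome 4 and 29 on chromosome 5, where 26.1%, 15.6%, 20.0%, 15.2% and 23.1% of all genes lie.

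The most abundant transcript of the set came from a cell wall gene. XTH19 (AT4G30290, chromosome 4, 14828712 to 14830224) was at 166, 169 and 157 TPM in the ΔMP mock, 204, 194 and 226 TPM at 90 min and 465, 474 and 518 TPM at 180 min. Its libraries at 90 min were already above all mock libraries, and with a ratio of 0.675 in AXR3-1 at 180 min it sat just inside the rule. XTH5 (AT5G13870) was at 38.4 to 42.0 TPM in the mock, 50.8 to 52.7 TPM at 90 min and 115, 117 and 128 TPM at 180 min. XTH26 (AT4G28850) was at 0.076 to 0.338 TPM in the mock and at 2.44, 3.28 and 3.68 TPM at 180 min. They were 3 of 33 XTH genes, of which 8 reached a ratio of 2. TBL21, of a family whose members acetylate wall polysaccharides, went from 15.6 to 16.1 TPM to 62.8, 64.1 and 70.9 TPM, and of 259 pectin-related genes AT1G10640, a pectin lyase-like protein, and PAE8, a pectin acetylesterase, were members with ratios of 3.42 and 2.51. Expansins, 37 genes with 3 at a ratio of 2, gave none.

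SAUR proteins gave 4 of 80 genes, SAUR75, SAUR35, SAUR21 and SAUR77, of 18 that reached a ratio of 2 with at least 2 TPM. SAUR35 was at 0.464 to 0.619 TPM in the mock and at 4.81, 5.55 and 7.26 TPM at 180 min. SAUR21 and SAUR77 were low and spread widely, at 1.39 to 2.97 and 3.96 to 8.96 TPM at 180 min. SAUR21 shares 37.1% of its 31-base words with other genes, SAUR19 first among them, so its level is uncertain.

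Among transcription factor families, bHLH had 5 members of 139 genes (3.6%), where 100 of all 27313 genes were members. Of the 139, 6 reached a ratio of 2. Besides AT5G43175 the members were BEE1, BEE2, PRE5 and AT1G29270. BEE1 and BEE2 are known as factors that brassinosteroid raises, and PRE5 belongs to small bHLH proteins that do not bind DNA themselves. BEE1 (AT1G18400) was at 0.723, 1.11 and 0.735 TPM in the mock, at 0.879, 1.00 and 0.575 TPM at 90 min and at 7.71, 4.83 and 6.36 TPM at 180 min. BEE2 (AT4G36540) was at 3.35, 3.71 and 5.29 TPM in the mock and at 12.3, 10.8 and 14.6 TPM at 180 min. PRE5 was at 2.73 to 4.37 TPM at 180 min. MYB77, a MYB factor known from auxin response in roots, went from 2.95 to 3.78 TPM to 8.38, 8.61 and 8.93 TPM, and MYB58, known from lignin synthesis, reached only 2.12 ± 0.316 TPM (SD, n = 3). Of 195 MYB genes, 4 reached a ratio of 2 and these 2 were members. NAC (130 genes), LBD (43) and AP2/ERF (105) gave no member, though 3 AP2/ERF genes reached a ratio of 2.

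WOX5 (AT3G11260, chromosome 3, 3527280 to 3528440), the homeobox gene of the quiescent center, was the only member among 10 meristem and stem cell niche genes. It was at 3.63, 4.47 and 3.79 TPM in the ΔMP mock, at 3.59, 4.08 and 3.49 TPM at 90 min and at 8.18, 10.7 and 10.9 TPM at 180 min, and the other 18 libraries lay between 2.63 and 4.47 TPM. The 9 other genes of that list did not reach a ratio of 2. HB24 and AT1G49560, with ratios of 2.85 and 2.09, were the other members grouped under homeodomain proteins by annotation, which does not make each a homeobox gene like WOX5.

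**Figure D4:**
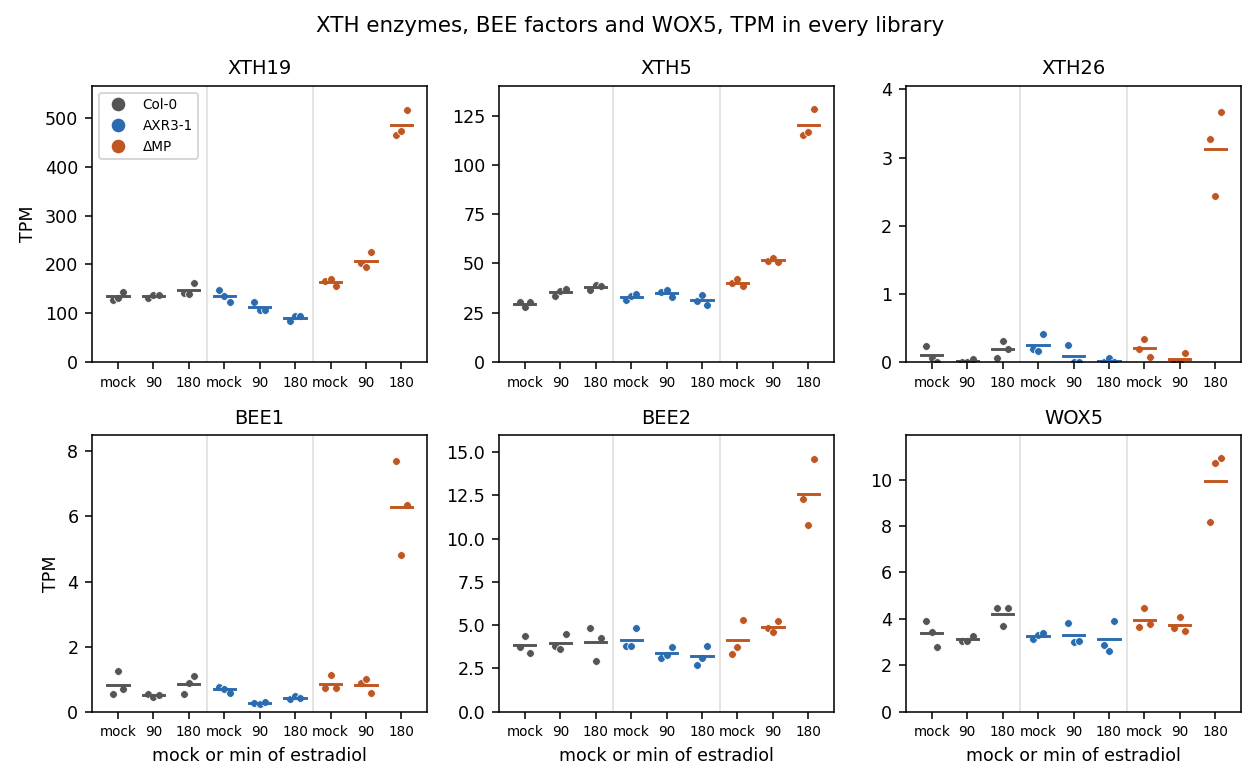
TPM (y) of 3 XTH genes, BEE1, BEE2 and WOX5 in each of the 27 libraries, grouped as mock, 90 and 180 min of estradiol in Col-0 (grey), AXR3-1 (blue) and ΔMP (orange), with a bar at the mean of each 3 libraries. XTH19 and XTH5 are already above the mock at 90 min in ΔMP, while WOX5 and BEE1 are not, with WOX5 at 3.49 to 4.08 TPM against 3.63 to 4.47 TPM.

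Among the other abundant members, UGT71C1, a glucosyltransferase that acts on small molecules, went from 93.3 to 99.5 TPM in the ΔMP mock over 87.5 to 101 TPM at 90 min to 209, 206 and 220 TPM. PSK3, a precursor of the growth peptide phytosulfokine, went from 32.5 to 42.1 TPM to 77.4, 82.8 and 81.2 TPM. AT5G42510, a dirigent-like protein, went from 31.9 to 38.7 TPM to 94.9, 88.0 and 93.0 TPM, with 17.0% of its words shared with another gene. AT2G28200, a zinc finger protein, went from 22.2 to 23.4 TPM to 55.7, 56.4 and 59.1 TPM. Transporters among the members were BOR5, SULTR3;2, AMT2 and ABCG42, with ratios of 4.69, 3.76, 2.16 and 2.07, and the last shares part of its coding sequence with other genes.

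The rule did not use AXR3-1 or Col-0 at 90 min, so their comparison is made on other libraries. It did limit the ratio in AXR3-1 at 180 min, and 56 genes were left out only for being low there. The share of members lower at 90 min and their median are thus those of a set trimmed of such genes. The question was whether genes that ΔMP raises late were lower where the repressor AXR3-1 had been induced for 90 min. Of 96 members tested, 8 were lower in AXR3-1 than in Col-0 (edgeR quasi-likelihood test, adjusted p at most 0.05 over all genes), which is 8.33%, against 2.64% of all genes tested. By edgeR 0 were higher, against 1.74% of all genes, with 4 members higher at an unadjusted p under 0.05 and 0 by DESeq2 or limma. Of the 96, 71 passed the filter on low counts in these 6 libraries alone. The rest passed with reads of other groups, and genes with hardly any reads here could not be found lower or higher. SAUR75 and AT5G38580, for example, were at 0 TPM in all 6 libraries. The share of the 96 and the median below include such genes, which are no evidence of an unchanged level. Of the 193 other raised genes tested, 63 were lower (32.6%), but some of these were left out of the set for being low in AXR3-1 at 180 min. The median log2 fold change of the members was -0.04, against 0.01 for all genes. Called at 2-fold as well, 1 member was lower, against 0.271% of all genes, and 0 were higher, against 0.215%.

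The 4 auxin genes of the 8 were IAA2, GH3.5, IAA19 and GH3.6. IAA2 was at 24.0, 25.2 and 26.3 TPM in AXR3-1 and at 45.4, 40.8 and 47.1 TPM in Col-0, with a log2 fold change of -0.80 ± 0.09 (SE) and an adjusted p of 3.98e-07 by edgeR. GH3.5 was at 10.3, 9.04 and 9.17 TPM against 16.0, 16.0 and 15.5 TPM, -0.74 ± 0.07 on the log2 scale (edgeR adjusted p = 2.29e-08). IAA19 was at 8.09, 7.94 and 9.82 TPM against 11.7, 14.0 and 12.9 TPM (-0.58 ± 0.12, edgeR adjusted p = 0.00156), and GH3.6 at 7.14, 7.64 and 6.81 TPM against 9.57, 10.1 and 9.59 TPM (-0.44 ± 0.09, edgeR adjusted p = 0.00147). The groups did not overlap for any of the 4. Over all members, the 3 AXR3-1 libraries lay below all 3 Col-0 libraries for 17 (7.22% of all genes) and above them for 5 (6.69%). In the fixed lists they belong to, 8 of 27 Aux/IAA genes were lower and 1 higher, and 6 of 6 conjugation genes were lower. The 1 higher was IAA17/AXR3, whose reads include those of the induced transgene. Their median log2 fold changes were -0.26 and -0.67. IAA4 (-0.16 ± 0.09, adjusted p = 0.453 by edgeR) and IAA5 (-0.43 ± 0.82, adjusted p = 0.903) did not pass.

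The 4 others were TBL21, ARO3, XTH19 and AT5G05840. TBL21 was at 11.7, 11.1 and 10.8 TPM in AXR3-1 and at 13.7, 15.4 and 15.7 TPM in Col-0 (log2 fold change -0.40 ± 0.07, edgeR adjusted p = 2.80e-04). ARO3, an armadillo repeat protein, was at 2.11, 2.26 and 2.43 TPM against 3.58, 2.93 and 3.06 TPM (-0.51 ± 0.12, edgeR adjusted p = 0.00964). It no longer passed without Col-0 replicate A (adjusted p = 0.111) or AXR3-1 replicate A (adjusted p = 0.074 by edgeR). XTH19 was at 124, 107 and 107 TPM against 131, 138 and 138 TPM (-0.26 ± 0.07, edgeR adjusted p = 0.0326), and it no longer passed without any 1 of 5 of the 6 libraries, all but AXR3-1 replicate A. AT5G05840, a protein of unknown function, was the 1 member called at 2-fold. It was at 0.308, 0.421 and 0.516 TPM against 0.753, 1.21 and 0.943 TPM (-1.26 ± 0.30, edgeR adjusted p = 0.00903), and it no longer passed without Col-0 replicate B (adjusted p = 0.0681) or AXR3-1 replicate A (adjusted p = 0.109). The summed TPM of the root hair markers was 207 to 275 in AXR3-1 and 301 to 361 in Col-0 at 90 min, and that of the root cap markers 43.9 to 48.0 and 51.1 to 55.5. The part of these cell types in the difference was not tested.

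**Figure D5:**
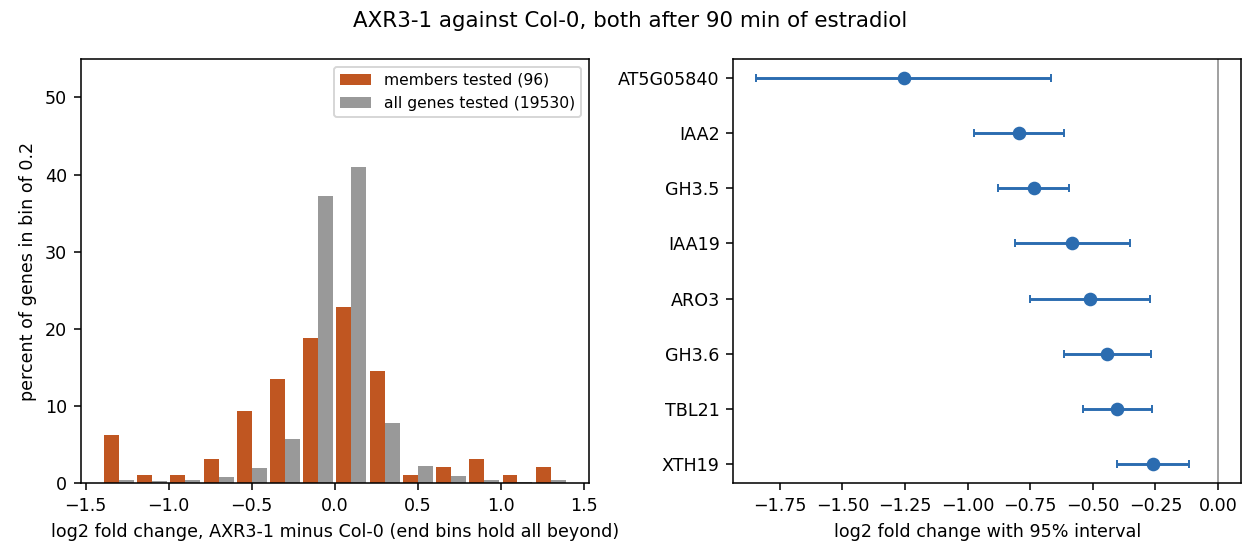
Left, the share of genes (percent, y) in bins of 0.2 of the log2 fold change of AXR3-1 against Col-0, both after 90 min of estradiol, for the 96 members tested (orange) and for all 19530 genes tested (grey), with the end bins holding all values beyond. Of the 96, 71 passed the count filter in these libraries alone, and the bars include the rest, some without a read here. Right, the 8 members with an adjusted p of at most 0.05, as points with 95% intervals from the SE, from AT5G05840 at -1.26 to XTH19 at -0.26, all below 0.

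Against the mocks, which the rule had used, the members were compared for each line at 90 min. The AXR3-1 libraries are those of the comparison above, and the 96 again include genes with few or no reads in the libraries compared. In AXR3-1, 10 of 96 members were lower than in the mock (3.23% of all genes) and 0 higher by edgeR (2.62%), with 1 member higher at an unadjusted p under 0.05 and 0 by DESeq2 or limma. At 2-fold, 1 was called lower (0.343%) and 0 higher (0.189%). The median log2 fold change was -0.09, against 0.00 for all genes. The auxin genes had log2 fold changes of -0.79 ± 0.09 for IAA2, -0.75 ± 0.07 for GH3.5, -0.52 ± 0.09 for GH3.6, -0.40 ± 0.12 for IAA19 and -0.37 ± 0.09 for IAA4 (SE, edgeR adjusted p from 1.15e-08 to 0.0411). IAA19 no longer passed without AXR3-1 mock replicate A or C, or without AXR3-1 replicate A or B at 90 min (adjusted p = 0.0847, 0.196, 0.229 and 0.16 by edgeR). It also did not pass with only the 6 libraries compared (0.0934), by DESeq2 (0.0618) or by limma with 0.5 or 1 TPM added (0.131 and 0.136). ACA12, a calcium pump, was at 1.43, 1.71 and 1.34 TPM against 2.13, 2.91 and 2.56 TPM in its mock, with a log2 fold change of -0.78 ± 0.17 (edgeR adjusted p = 0.00287). The others were AT5G05840, TBL21, XTH19 and AT5G42510, at -1.55, -0.33, -0.26 and -0.31, and the last pair no longer passed without 1 of several libraries, by limma or without TMM.

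In Col-0 at 90 min, 2 members were lower than in the mock (2.39% of all genes) and 0 higher by edgeR (0.548%), with 4 members higher at an unadjusted p under 0.05, 0 by DESeq2, 2 by limma on log2(TPM + 0.5) and 1 on log2(TPM + 1). At 2-fold, 0 were called lower (0.2%) or higher (0.041%). The 2 were AT1G14185, an oxidoreductase, at -0.66 ± 0.13 and AT2G28200 at -0.29 ± 0.08 on the log2 scale (SE, edgeR adjusted p = 0.00178 and 0.0252). AT2G28200 no longer passed without Col-0 mock replicate B or C, or without Col-0 replicate A or C at 90 min (adjusted p from 0.0798 to 0.167 by edgeR), which leaves 1 of the 2, nor by limma or with only the 6 libraries compared.

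With an interaction term, the response to 90 min of estradiol differed between AXR3-1 and Col-0 for 2 of 96 members, both lower, against 0.645% of all genes lower by this term. IAA2 had a difference of responses of -0.86 ± 0.13 on the log2 scale (edgeR adjusted p = 9.08e-05), since it fell in AXR3-1 from 44.0 to 45.9 TPM in the mock to 24.0 to 26.3 TPM and stayed at 40.8 to 47.1 TPM in Col-0, where the mock was at 42.0 to 43.9 TPM. GH3.5 had a difference of -0.55 ± 0.10 (edgeR adjusted p = 0.00142). For both genes all 3 AXR3-1 libraries at 90 min were below all 3 mock libraries.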

How the data were processed

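The members and the gene lists were chosen with earlier results of these data known. The interaction term and the counts at the adjusted p alone were added after seeing the data. Root tip RNA of 27 libraries was sequenced, 3 in each of 9 groups set by line, treatment and time in the labels. The authors quantified reads with Salmon 1.3.0 against the coding sequences of TAIR10. For trimming, the processing notes name Trimmomatic, whereas Rcorrector and Trim Galore stand in the study's methods. The authors deposited estimated counts and TPM for 32875 transcripts. The deposited TPM are corrected for transcript length and scaled to the same total per library, so a level is relative to all other transcripts. The coding sequences hold no UTRs, and reads of paralogs are shared out by Salmon.

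Values were summed per locus, which gave 27313 genes. Depth was 13634037 to 34272503 read pairs (median 20071330). The rounded estimated counts entered edgeR 4.0.16 (R 4.3.3; TMM, filterByExpr, quasi-likelihood test, prior count 0.125), with 1 coefficient for each of the 9 groups over the 27 libraries, and 19530 genes were tested. Benjamini-Hochberg adjustment covered every gene tested. A call needed an adjusted p no higher than 0.05 and an absolute log2 fold change no lower than 1, as in the study's methods. The fit was tested on simulated data. TPM are means ± SD. The SE of an edgeR fold change was derived as its absolute log2 value over the square root of the F statistic of the test. Its intervals use this SE and a normal quantile, and the Wilson interval covers counting error only.

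Named were the 12 members of largest ratio with a symbol, the 10 of highest TPM, members of 18 fixed lists, those called in AXR3-1 against Col-0 at 90 min, those next to the limits of the rule, and the 2 of largest ratio in each family with at least 2 members. Any other member named was chosen after its values were seen. Coordinates, names and promoters come from RefSeq, TAIR10.1, 1-based, where all 100 members matched. Protein sequences are not shown. Alternatives were DESeq2 1.42.0, limma 3.58.1 on log2(TPM + 0.5) or log2(TPM + 1), library totals without TMM, no filter, only the libraries compared, the letter as a block, each library left out, and CPM or another offset in the rule.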

Additional observations from a re-analysis of the deposited data

Results flagged for a closer look

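The response of IAA2 to 90 min of estradiol differed between AXR3-1 and Col-0 by -0.86 ± 0.13 (SE) on the log2 scale in the interaction term (edgeR adjusted p = 9.08e-05), with lower values in 3 of 3 AXR3-1 libraries than in every mock library of that line. In Col-0 the response of IAA2 was 0.07 ± 0.09. The response of GH3.5 differed by -0.55 ± 0.10 (edgeR adjusted p = 0.00142), again with 3 of 3 AXR3-1 libraries below their mock, and was -0.20 ± 0.07 in Col-0. Both passed the adjusted p of 0.05 under every alternative run, at less than 2-fold, with adjusted p up to 9.63e-04 for IAA2 and up to 0.00786 for GH3.5.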

How the results depend on the processing

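The rule gave 100 genes, and 94 with 0.1 TPM added, 112 with 1 TPM, 119 with CPM in place of TPM, 104 with medians, 70 with a minimum of 5 TPM and 180 without a minimum. Of the 100, 78 were kept with 0.1 TPM and 84 with CPM. With 1 of 21 libraries left out in turn, the rule gave 95 to 114 genes, and 67 of the 100 were kept each time. Named members kept less often include MAKR6 and XTH26, in 16 of the 21 runs, and CYP706A2, PRE5 and MYB58, in 17. Ratios of 22 named members under CPM or 1 TPM moved beyond the spread of the libraries in 23 of 44 cases and never below 1; the ratio of SAUR75 was 6.44 with CPM.

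Members called in AXR3-1 against Col-0 at 90 min were 1, 0 by limma with 0.5 or 1 TPM added, 8 without a minimum fold, and 0 to 2 with a library left out. Those against the AXR3-1 mock were 1, 0 by limma, 10 without a minimum fold, and 1 to 2. Those in Col-0 were 0, 2 without a minimum fold, and 0 with any library left out. At the adjusted p alone the counts with a library left out were 6 to 10, 7 to 10 and 1 to 2, and 1 in Col-0 with only the 6 libraries compared. The interaction gave 2 members, and 2 to 3 with a library left out. IAA2, GH3.5, IAA19, GH3.6 and TBL21 passed the adjusted p against Col-0 under every alternative run, and XTH19 did not under limma or without TMM.

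The letters did not pair the samples (correlations of deviations -0.05 to 0.06). With the letter as a replicate block the calls at the adjusted p alone were 8 against Col-0, 9 against the mock of AXR3-1 and 2 in Col-0, AT5G42510 no longer passing. The share of promoters with a motif was 22.0% with only the 250 bases before the start and 93.0% for TGTC with any 2 bases. All comparisons at 180 min lack a mock of that time.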
